A study of Mus musculus with 18 samples.

Results

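Kidney cortex taken 2 weeks into an aristolochic acid course was compared with vehicle cortex in mice whose Klf15 gene is intact. The comparison rests on 6 of the 18 libraries in the study. The 3 toxin libraries come from Klf15fl/fl mice (fl/fl) given aristolochic acid I for 2 weeks (AA 2wk). The 3 reference libraries come from fl/fl mice given DMSO, the vehicle, for which the labels name no week. All 6 are C57Bl/6 kidney cortex, removed after PBS perfusion and kept in RNAlater. The Klf15 alleles of both groups are floxed, that is, flanked by sites that a Cre recombinase can cut, and the labels name no Cre in this genotype. Whether the libraries of a group come from different mice is not stated, and the p-values therefore measure the spread between these samples, which may be technical. The other 12 libraries, from PTKO mice that lack Klf15 in the proximal tubule and from a later time, entered the fit to estimate that spread. They also counted in the choice of genes tested, in the scaling of libraries and in the first principal component. The PTKO libraries at 2 weeks also served 1 comparison at the end.

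Aristolochic acid I is a nitrated plant compound that organic anion transporters carry into proximal tubule cells. Enzymes there reduce it to a reactive form that binds the purine bases of DNA and stalls transcription and replication. The proximal tubule normally takes back most filtered salt, glucose, amino acids and protein, and its convoluted beginning (segment S1) and straight end (segment S3) carry different transporters. Injured tubule cells are known to lose these functions, to switch on repair genes and to draw in immune cells and fibroblasts.

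Levels are given as RPKM, a read count divided by transcript length and library size, and always in the order of libraries 1, 2 and 3. Differences are log2 fold changes on the log2(RPKM + 1) scale, AA 2wk over DMSO, with their standard error (SE) from a limma fit across all genes. A gene was called at a Benjamini-Hochberg adjusted p under 0.05, and only called genes are said to have risen or fallen. The added 1 RPKM makes the fold changes of low genes smaller than they are.

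The toxin libraries held 16.67 M, 16.7 M and 11.92 M reads (recovered from the RPKM steps), against 17.3 M, 16.76 M and 15.29 M reads in the DMSO libraries. Toxin library 3 stood apart. On the first principal component of all 18 libraries, which held 81.9% of the variance, it lay at -7.3, where its fellow libraries lay at 34 and 48.6 and the DMSO libraries between -90 and -66.1. Klf15 stood at 22.9, 18.6 and 41.3 RPKM in the toxin libraries, against 53, 61.3 and 65.5 RPKM in the DMSO libraries, so library 3 again lay nearest to vehicle. Of the 13624 genes tested, 8524 (62.6%) were called, of which 6864 were higher (50.4% of the genes tested) and 1660 lower (12.2%). In 6951 of the 13624 genes tested every toxin library lay above every DMSO library, and in 1682 every toxin library lay below. Groups that do not overlap are thus common among all genes, and a lack of overlap is read beside these counts. Without toxin library 3 the fit called 6855 higher and 1849 lower. The median log2 fold change of all genes was 0.33. Scaling the libraries by their median ratio brought that median to -0.01 and the split to 3800 higher and 3776 lower, and quantile normalization brought the median to -0.07 and the split to 3285 higher and 4051 lower. A count of members called as deposited is therefore read beside 50.4% higher and 12.2% lower, and a median beside 0.33. A count after median-of-ratios scaling is read beside 3800 higher and 3776 lower of 13624, and a median after it beside -0.01. A count without toxin library 3 is read beside 6855 higher and 1849 lower. Where median-of-ratios scaling changes a list's counts by more than 1.5 times, the counts after scaling stand beside it.

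The share of reads taken by single genes also moved. Kap, a protein that the male proximal tubule makes under androgen control, took 0.321%, 0.084% and 0.124% of reads in toxin libraries, against 2.763%, 2.479% and 3.192% in DMSO libraries. It was the most read gene in every DMSO library. In toxin libraries 1 and 2 the most read gene was Spp1 (osteopontin), and in library 3 it was Umod (uromodulin). Genes with near-identical copies are uncertain in this table. Gapdh, which nearly all cells express, is listed at 0.54 to 1.69 RPKM in these 6 libraries, and Ren1, Hba-a1 and Hbb-b1 are listed at 0. The same doubt holds for Bcl2a1b, Cyp2a5, Gm6300 and Gm11128, named below.

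**Figure D1:**
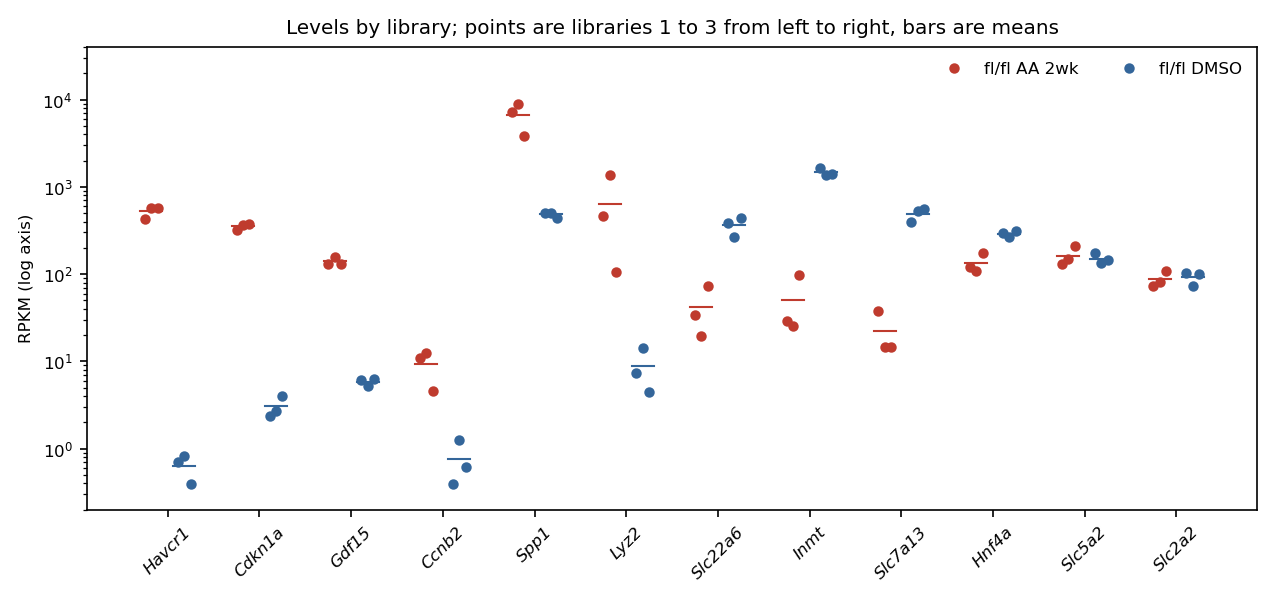
RPKM of 12 genes on a log axis in the 3 fl/fl AA 2wk libraries (red, left) and the 3 fl/fl DMSO libraries (blue, right), with bars at the means. Havcr1, Cdkn1a, Gdf15, Ccnb2, Spp1 and Lyz2 lie higher in every toxin library, Slc22a6, Inmt, Slc7a13 and Hnf4a lie lower, and the points of Slc5a2 and Slc2a2 overlap.

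The 12 largest rises held genes of injured and squamous epithelium, of secreted defence proteins and of myeloid cells. Havcr1, which encodes the kidney injury molecule KIM-1 on injured tubule cells, stood at 433, 573 and 579 RPKM in the toxin libraries, against 0.713, 0.821 and 0.391 RPKM in the DMSO libraries. All 3 toxin libraries lay far above vehicle, library 3 as high as library 2, with a log2 fold change of 8.33 ± 0.86 (adjusted p = 3.92e-06). Lcn2, a secreted iron-siderophore trap, stood at 353, 544 and 99.7 RPKM with the toxin, against 1.36, 2.42 and 0.74 RPKM with DMSO, and here library 3 was the lowest of the toxin libraries. Cdkn1a, the inhibitor p21 of cyclin-dependent kinases, reached 320.3, 366 and 378 RPKM, against 2.38, 2.72 and 4.05 RPKM in DMSO libraries. Its toxin libraries differed little from each other, and it had the smallest adjusted p of the genes named here (5.11e-12, log2 fold change 6.47 ± 0.18).

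Squamous and barrier genes stood beside them. Sprr1a, a cornified envelope protein of squamous epithelia, averaged 271 ± 119 RPKM with the toxin and 1.55 ± 1.07 RPKM with DMSO (SD, n = 3 each). S100a6, a calcium-binding protein, averaged 681 ± 207 and 8.85 ± 3.25 RPKM in the same order. Krt20, a keratin of urothelium and gut that injured tubules also make, averaged 43.8 ± 15.6 and 0.0932 ± 0.0672 RPKM. Crct1, a cornified envelope gene, read 33.5, 32.7 and 13 RPKM in the toxin libraries and is listed at 0 in each DMSO library. The other genes at the head of the list were Fst (follistatin, which binds activins, log2 fold change 5.30 ± 0.35), Ankrd1 (a target of the YAP coactivator, 4.82 ± 0.52), Timp1 (an inhibitor of metalloproteinases, 4.85 ± 0.81), C3 (the central complement protein, 4.99 ± 0.53) and Lyz2 (lysozyme of myeloid cells, 5.50 ± 0.72). Groups did not overlap for any of these 12 genes, a condition of their choice.

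The 12 largest falls held carriers, detoxifying enzymes and secreted proteins. Slco1a1, an organic anion carrier, stood at 0.896, 0.249 and 1.21 RPKM with the toxin, against 102, 53.6 and 185 RPKM with DMSO (log2 fold change -5.87 ± 0.31, adjusted p = 1.87e-08). Inmt, which methylates indolamines, stood at 28.7, 25.2 and 98.3 RPKM, against 1634, 1384 and 1415 RPKM in DMSO libraries, and library 3 kept the most of it. Dpys, which opens the ring of dihydropyrimidines, read 0.0606, 0.121 and 0.39 RPKM in toxin libraries, against 13.8, 11.3 and 11.1 RPKM in DMSO libraries. Its log2 fold change of -3.46 is understated by the added 1 RPKM, since every toxin library lay under 1 RPKM. Cyp4b1 and Cyp2a5 (cytochromes P450), Slc7a13 (an S3 aspartate and glutamate carrier), Pzp (a proteinase inhibitor), Azgp1 (a secreted zinc-binding glycoprotein) and Hpd (tyrosine breakdown) fell, with log2 fold changes of -4.53 to -3.35, as did Kap, Gm6300 and Gm11128. In whole cortex, fewer cells of a type and less RNA per cell cannot be told apart, here and in every result that follows.

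The carriers that bring the toxin into the cell fell while several efflux pumps rose. Slc22a6 (OAT1), which takes up organic anions including aristolochic acid, stood at 33.6, 19.4 and 74.1 RPKM with the toxin, against 381, 265 and 443 RPKM with DMSO. Slc22a8 (OAT3), the second such carrier, stood at 34.9, 32 and 158 RPKM, against 310.5, 282 and 268 RPKM in DMSO libraries. No toxin library overlapped vehicle for either. The log2 fold change was -3.25 ± 0.57 for Slc22a6 (adjusted p = 0.00025) and -2.33 ± 0.56 for Slc22a8 (adjusted p = 0.00244). Slc22a7 (OAT2, -3.20), the urate carrier Slc22a12 (-2.42) and the cation exporter Slc47a1 (MATE1, -1.61) also fell. Of the efflux pumps, Abcb1b, a multidrug P-glycoprotein, averaged 15.7 ± 4.42 RPKM with the toxin and 2.28 ± 0.555 RPKM with DMSO (log2 fold change 2.33 ± 0.37, adjusted p = 0.000117). Abcc3, Abcc1 and Abcc4, pumps for conjugates and organic anions, rose by 1.70, 1.54 and 1.44. The apical pump Abcc2 was not called (-0.47 ± 0.23), but it was without toxin library 3 (-0.77). Over the 15 carriers listed, 4 rose, 9 fell and the median was -1.02.

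Fewer of the enzymes that act on the toxin were called. Nqo1, the quinone reductase that reduces aristolochic acid I, read 48.4, 29.2 and 79.8 RPKM in toxin libraries and 46.6, 55.8 and 50.5 RPKM in DMSO libraries, groups that overlap, with a log2 fold change of -0.07 ± 0.25 (adjusted p = 0.821). Por, the reductase that feeds cytochromes P450, fell by 0.90 (SE 0.14, adjusted p = 0.000127). Cyp1b1 rose by 2.04 ± 0.68 (adjusted p = 0.0165), a call lost without toxin library 1 (1.81) and without DMSO library 3 (1.71). Cyp1a1 and Cyp1a2, which demethylate the toxin, were too low to be tested. Of 12 enzymes and regulators tested, 6 rose and 1 fell, with a median of 0.20, and after scaling 4 rose and 3 fell with a median of -0.14.

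Repair of bulky DNA lesions changed at some steps and not at others. In nucleotide excision repair, which cuts out a stretch around a bulky adduct, 9 of 20 genes rose, none fell and the median was 0.26, close to that of all genes. After scaling 4 rose and 2 fell, and the median was -0.08. The largest rises were at the incision and sealing steps. Ercc1, a subunit of the nuclease that cuts on the 5′ side, averaged 19.7 ± 4.00 RPKM with the toxin and 5.43 ± 0.904 RPKM with DMSO (log2 fold change 1.68 ± 0.22, adjusted p = 2.5e-05). Lig1, a DNA ligase also used in replication, rose by 1.82 ± 0.27, and Ercc5, the nuclease that cuts on the 3′ side, by 1.08 ± 0.15. The lesion sensors Xpc (0.13 ± 0.09) and Ddb2 (0.47 ± 0.24) were not called, but after scaling Xpc was called lower, and without DMSO library 2 Ddb2 was called higher (0.83).

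Polymerases and helpers that copy past lesions rose in 9 of 12 cases, with a median of 0.60 (5 rose and 2 fell after scaling). Polk, a translesion polymerase that accepts bulky adducts, stood at 12.7, 14.2 and 14.1 RPKM with the toxin, against 3.67, 4.43 and 3.18 RPKM with DMSO. Rad18, the ligase that marks PCNA at stalled forks, stood at 3.32, 3.08 and 2.47 RPKM, against 0.492, 0.34 and 0.304 RPKM in DMSO libraries. For both, library 3 lay close to its fellows and all lay above vehicle, with log2 fold changes of 1.63 ± 0.19 and 1.52 ± 0.15. In break and crosslink repair 13 of 17 genes rose and none fell (9 and 1 after scaling), among them the histone H2afx (1.26 ± 0.20) and Brca1 (1.25 ± 0.28). The kinases that sense breaks and stalled forks, Atm (0.21 ± 0.15) and Atr (0.14 ± 0.14), were not called, and under quantile normalization both were called lower.

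Cell cycle genes rose at both ends of the cycle, beside high p21. All 20 genes of G1 and S phase were called higher, with a median of 0.98 (17 after scaling). Rrm2, the ribonucleotide reductase subunit that makes deoxynucleotides, stood at 20.3, 23.5 and 12.2 RPKM with the toxin, against 1.09, 1.92 and 1.59 RPKM with DMSO. Ccnd2 (cyclin D2) stood at 21.7, 32 and 15.6 RPKM, against 2.55, 3.36 and 2.06 RPKM in DMSO libraries. The replication helicase genes Mcm3 and Mcm5 rose by 2.40 ± 0.30 and 2.22 ± 0.30. Ccnd1 (cyclin D1), already at 88.8 ± 1.17 RPKM with DMSO, rose by 0.91. Of 21 genes of G2 and mitosis, 19 rose, none fell and the median was 1.87. Ccna2 (cyclin A2) read 12.5, 13.5 and 4.23 RPKM in the toxin libraries, against 0.493, 1.02 and 0.292 RPKM in the DMSO libraries, and Cdk1, the mitotic kinase, read 7.93, 9.08 and 3.26 RPKM, against 0.233, 0.562 and 0.574 RPKM. In Rrm2, Ccnd2, Ccna2 and Cdk1 library 3 was the lowest toxin library and still above vehicle.

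Promoters of the genes of G2 and mitosis are known for paired CCAAT boxes, the element bound by the NF-Y factor. RefSeq promoters (GRCm38.p6, 250 bases before each transcription start) were searched for CCAAT on both strands, so that it reads ATTGG on the other strand. A window was found for 17 of the 21 tested genes of G2 and mitosis, and 15 of the 17 (88.2%) held the box. These shares count promoters with at least 1 box, and how many hold a pair was not counted. Among 21 genes of the integrated stress response with a window, 16 (76.2%) held it, and among 16 of G1 and S phase, 8 held it. In nucleotide excision repair 10 of 16 (62.5%) held it, in break repair 8 of 14 (57.1%), in renal hormones and receptors 8 of 15 (53.3%), in amino acid breakdown 11 of 21 (52.4%) and in apoptosis 3 of 21 (14.3%). The other lists with a window for at least 80% of their genes had shares below 50%, and lists with fewer windows were not read. The share in all 27025 RefSeq promoters of that length was 34.5%. A window was found for 78.7% of all genes tested, just under the 80% bound, and 35.8% of these windows held the box. The share was 35.8% for genes called higher and 36.0% for genes called lower. Other motifs, such as those of HNF1, HNF4, AP-1 and p53, were searched in the same windows and are not given. A match describes letters and does not show binding. The 5 stretches of 100 bases below, printed 5′ to 3′ on the gene's strand with each match in capitals, show how the boxes are spaced in 4 mitotic genes and in 1 stress response gene that rose. These genes were picked, and their spacing need not be typical of their lists. They lie on the minus strand of chr9:70421562-70421661 (Ccnb2), chr13:100786506-100786605 (Ccnb1), chr10:69352913-69353012 (Cdk1), chr2:172370571-172370670 (Aurka) and chr6:83317621-83317720 (Mthfd2).
Ccnb2: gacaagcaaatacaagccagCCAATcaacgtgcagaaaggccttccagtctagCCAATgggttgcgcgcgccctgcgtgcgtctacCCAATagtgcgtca
Ccnb1: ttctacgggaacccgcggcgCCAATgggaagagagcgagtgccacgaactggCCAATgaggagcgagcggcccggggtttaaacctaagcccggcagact
Cdk1: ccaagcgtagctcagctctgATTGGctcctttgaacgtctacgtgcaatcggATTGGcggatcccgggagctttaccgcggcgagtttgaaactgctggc
Aurka: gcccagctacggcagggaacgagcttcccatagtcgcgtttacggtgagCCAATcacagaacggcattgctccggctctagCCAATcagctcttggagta
Mthfd2: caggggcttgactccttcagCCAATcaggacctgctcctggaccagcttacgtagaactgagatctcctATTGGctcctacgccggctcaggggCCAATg

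The first bases of neighbouring boxes lie 33 and 33 bases apart in Ccnb2 (cyclin B2) and 32 bases apart in Ccnb1 (cyclin B1), Cdk1 and Aurka (the Aurora A kinase of the spindle poles). In Mthfd2, a mitochondrial folate enzyme, they lie 49 and 25 bases apart. Ccnb2 stood at 11, 12.3 and 4.53 RPKM with the toxin, against 0.396, 1.27 and 0.615 RPKM with DMSO (log2 fold change 2.48 ± 0.35, adjusted p = 5.13e-05). Ccnb1 was lower in both groups, at 1.16, 2.01 and 0.728 RPKM with the toxin and 0.0718, 0.0496 and 0.0273 RPKM with DMSO, with a log2 fold change of 1.09 ± 0.23. Aurka stood at 5.87, 6.89 and 2.81 RPKM, against 0.505, 0.96 and 0.831 RPKM in DMSO libraries. Each of the 3 pairs of groups is apart, with the DMSO libraries at or under 1.27 RPKM.

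Brakes on the cycle rose with it. Of 15 inhibitors and senescence genes, 11 rose and 1 fell, with a median of 0.91. After Cdkn1a, Cdkn2b (p15) rose by 1.83 ± 0.34, Hmga2, a chromatin protein of fetal and senescent cells, by 1.74 ± 0.32, and Trp53 itself by 1.34 ± 0.23. Cdkn2a (p16 and p19ARF) stayed under 1 RPKM in all 6 libraries, at 0.308, 0.819 and 0.353 RPKM with the toxin and 0.0488, 0 and 0.0556 RPKM with DMSO. It passed the filter for testing only through libraries outside these 6. Its call (adjusted p = 0.0425) was lost in 9 of the other settings, 4 of which each leave out 1 library (toxin library 2 or any DMSO library). Glb1, the lysosomal galactosidase behind the senescence stain, fell by 0.72 (SE 0.15, adjusted p = 0.000751). Lmnb1, a lamin that senescent cells lose, rose by 1.96 ± 0.33.

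Genes of cell death rose on both the initiating and the protecting side. Of 26 apoptosis genes, 20 rose and 3 fell, with a median of 1.0. Pmaip1 (NOXA) and Bbc3 (PUMA), which free the cell's executioners by binding protective BCL2 proteins, rose by 2.82 ± 0.27 and 2.38 ± 0.28. Tnfrsf10b, a death receptor, stood at 8.96, 10.9 and 7.91 RPKM with the toxin, against 0.593, 0.723 and 0.497 RPKM with DMSO. Protective genes rose too: Bcl2l1 (BCL-XL) by 1.0 ± 0.10, Birc3 (cIAP2) by 2.16 ± 0.38 and Bcl2a1b by 3.0 ± 0.56. Bid and Bik, which promote death at the mitochondrion, fell (-0.65 and -0.78).

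Genes of lytic cell death rose, and those of ferroptosis were mixed. Ripk3, the kinase of necroptosis, stood at 7.27, 9.43 and 3.64 RPKM with the toxin, against 0.197, 0.584 and 0.129 RPKM with DMSO. Mlkl, its pore-forming protein, stood at 9.55, 11.2 and 4.15 RPKM with the toxin, against 0.716, 1.08 and 0.742 RPKM with DMSO. For both, the lowest toxin library (library 3) lay more than 3 times above the highest DMSO library (library 2). Zbp1, a nucleic acid sensor that can engage Ripk3, rose by 2.76 ± 0.54, the inflammatory caspase Casp4 by 2.40 ± 0.38 and Gsdmd, the pore protein of pyroptosis, by 2.00 ± 0.38. Gpx4, which protects lipids from the peroxidation of ferroptosis, was not called (-0.25 ± 0.14), and it was called lower after scaling (-0.65) and without toxin library 3 (-0.40). Acsl4, which makes lipids prone to it, rose by 1.16 ± 0.11. Over the 19 genes tested, 12 rose and 3 fell, with a median of 1.20. Macrophages also express Zbp1, Casp4 and Gsdmd, and macrophage markers moved with them, as given further on. Which cells hold the rises of Ripk3 and Mlkl was not tested.

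Markers of repairing and failed-repair tubule rose in 22 of 23 cases, with a median of 2.06. Many of these genes are known from such injuries, which is why they were listed. Cd44, a hyaluronan receptor, stood at 32.9, 48.8 and 18.5 RPKM with the toxin, against 0.422, 0.62 and 0.257 RPKM with DMSO (log2 fold change 4.49 ± 0.51, adjusted p = 8.14e-06). Akap12, a signalling scaffold, stood at 60.1, 71.2 and 48.5 RPKM, against 3.23, 3.81 and 1.75 RPKM in DMSO libraries. Vcam1, an adhesion molecule of failed-repair tubule and of endothelium, rose by 3.47 ± 0.52, Sox9, a regenerating tubule factor, by 2.34 ± 0.26, and Dcdc2a, a ciliary protein of failed repair, by 1.93 ± 0.26. Spp1 read 7242, 8887 and 3835 RPKM in the toxin libraries, against 508, 503 and 438 RPKM in the DMSO libraries. Itgb8 was not called, at 12.4, 16 and 15.5 RPKM with the toxin and a scattered 16.2, 4.30 and 22.8 RPKM with DMSO.

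The lists of injury-induced and of segment transcription factors changed differently. All 28 injury-induced factors listed were called higher, with a median of 2.22 (24 after scaling). This list was drawn up as factors that injury induces, with earlier results of these data known, so its count is no test. The largest rises were those of Fos (2.93 ± 0.59), Spi1, the myeloid factor PU.1 (2.92 ± 0.42), Klf5 (2.88 ± 0.32) and Myc (2.81 ± 0.34). Klf5, a Krüppel-like factor of proliferating epithelia, stood at 9.53, 11.6 and 7.49 RPKM with the toxin, against 0.386, 0.633 and 0.256 RPKM with DMSO. Of 24 factors that define tubule segments, 13 fell and 6 rose (16 and 3 after scaling), with a median of -0.37. Hnf4a, a nuclear receptor that drives proximal tubule genes, stood at 121, 108 and 175 RPKM with the toxin, against 293, 266 and 310.1 RPKM with DMSO (log2 fold change -1.13 ± 0.17, adjusted p = 7.94e-05). The bile acid receptor Nr1h4 (-1.26) and the sugar-responsive factor Mlxipl (-1.78) also fell. Pax8, a nephron lineage factor, rose by 0.83 ± 0.14.

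Keratin, junction and cytoskeletal genes rose, and the epithelial cadherin did not fall. Of 19 keratins and barrier genes, 16 rose and none fell, with a median of 2.39 (14 and 1 after scaling), and of 25 junction and cytoskeletal genes 23 rose and 1 fell, with a median of 1.26. Krt18, a simple-epithelium keratin, stood at 58.5, 99.4 and 34 RPKM with the toxin, against 6.81, 6.52 and 6.54 RPKM with DMSO. Anxa3, a membrane-binding protein, and Lgals3, the lectin galectin-3, rose by 3.72 ± 0.41 and 2.96 ± 0.21. Cldn1, a tight junction claudin that parietal epithelium makes, stood at 71.9, 119.7 and 61.3 RPKM, against 7.39, 6.40 and 6.12 RPKM in DMSO libraries. Cldn2, the leaky claudin of the proximal tubule, fell by 0.77 (SE 0.14, adjusted p = 0.000247). Vim (vimentin, a mesenchymal filament) rose by 3.56 ± 0.44 and Cdh2 (N-cadherin) by 2.66 ± 0.30. Cdh1 (E-cadherin) read 73.4, 69.9 and 65 RPKM with the toxin, against 48.1, 50.1 and 45.7 RPKM with DMSO, a rise of 0.52 ± 0.10 that scaling reduced to 0.13, not called. Of 18 integrins and tetraspanins 16 rose, led by Itga3, a laminin-binding chain (3.21 ± 0.27).

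Growth factor genes changed in both directions. Of 34 tested, 21 rose and 6 fell, with a median of 0.91. Gdf15, a stress-induced TGF-beta relative, stood at 131, 159 and 131 RPKM with the toxin, against 6.19, 5.19 and 6.23 RPKM with DMSO (log2 fold change 4.36 ± 0.16, adjusted p = 1.82e-10). All 3 toxin libraries were alike, library 3 included. Cyr61 and Ctgf, matricellular targets of YAP, rose by 3.21 ± 0.28 and 1.87 ± 0.36, and Lif, an interleukin 6 family cytokine, by 3.16 ± 0.48. Hbegf, an EGF receptor ligand cut from the membrane, rose by 1.84 ± 0.19, and Areg, another such ligand, read 1.22, 4.07 and 1.27 RPKM with the toxin and is listed at 0 in each DMSO library. Egf itself, a product of the thick ascending limb and distal tubule, scattered at 105, 19.8 and 259 RPKM with the toxin, against 337, 382 and 259.9 RPKM with DMSO. Toxin library 3 lay close to DMSO library 3, and the call (-1.96 ± 0.67, adjusted p = 0.0197) was lost in 4 of the other settings. Without toxin library 2 the value was -0.96, and without DMSO library 2 it was -1.84, neither called. Vegfa, which maintains capillaries, fell by 0.85 (adjusted p = 0.01), a call lost when only the 6 libraries were fitted. Of 26 Wnt, Notch and Hedgehog genes 18 rose and none fell (11 and 4 after scaling). Wnt7b, a Wnt ligand, stood at 10.9, 10.8 and 10.1 RPKM, against 0.502, 1.37 and 0.386 RPKM in DMSO libraries, and Jag1 and Notch3 rose by 1.64 ± 0.21 and 1.58 ± 0.29.

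**Figure D2:**
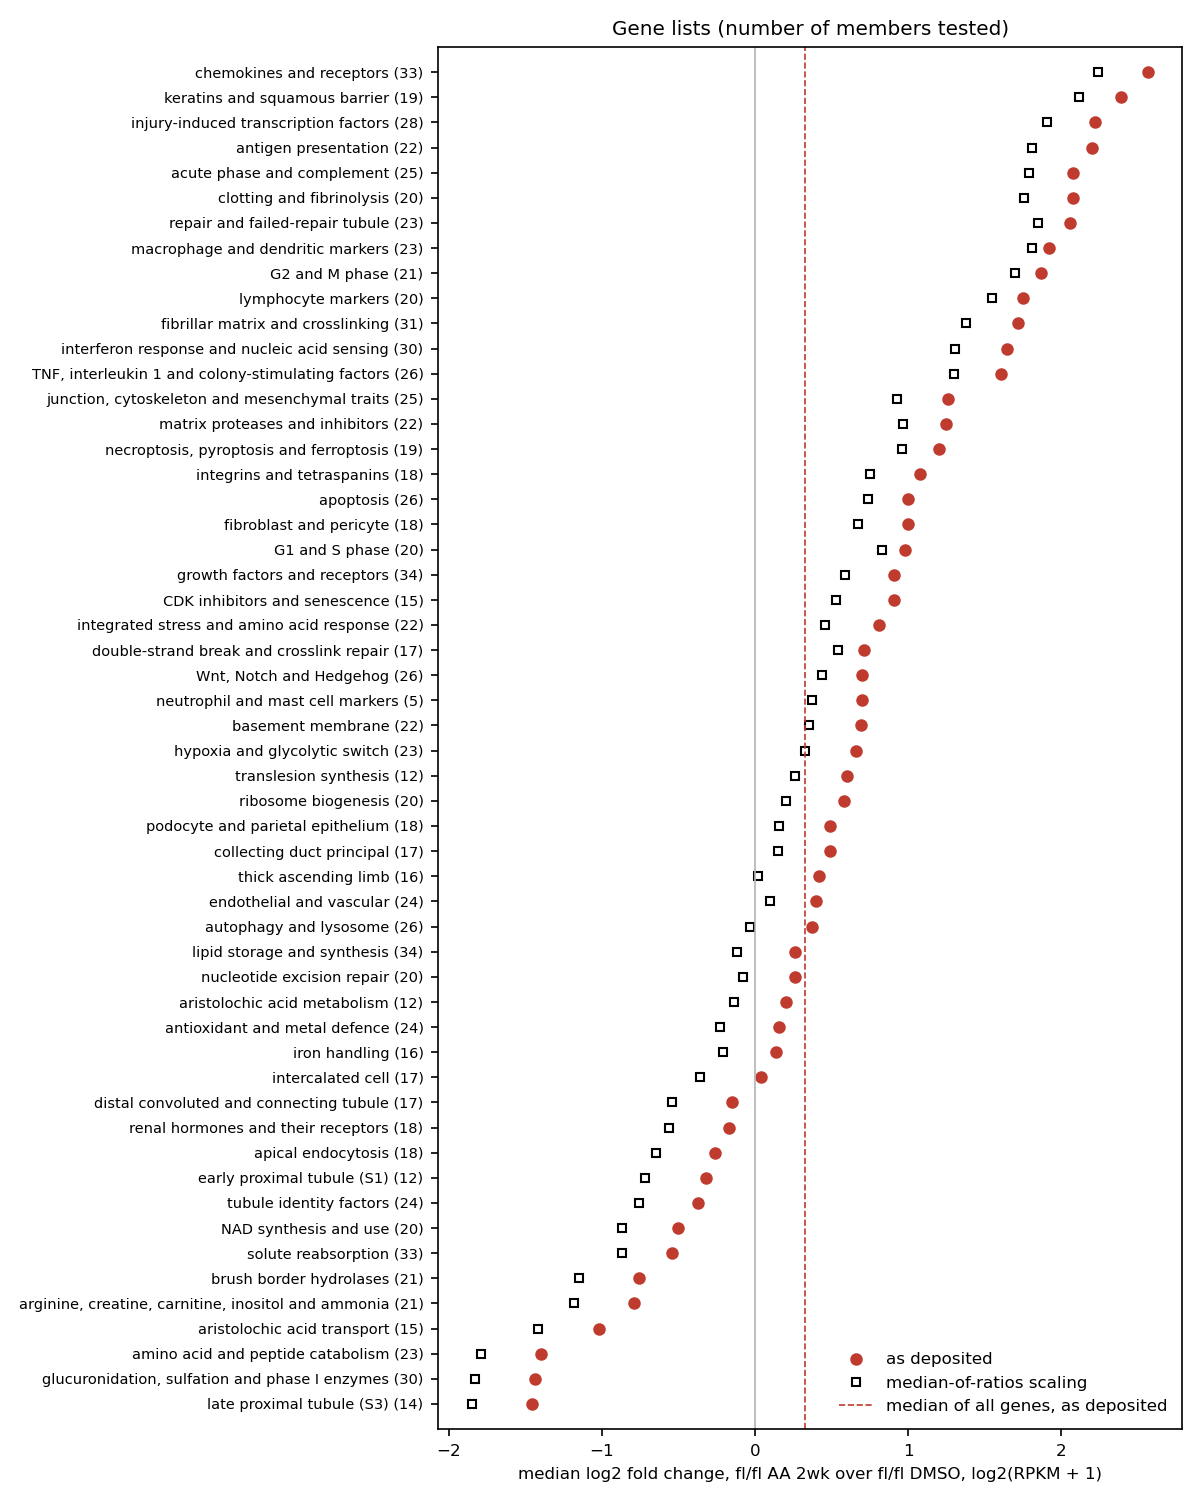
Median log2 fold change (AA 2wk over DMSO in fl/fl) of each gene list, as deposited (filled) and after median-of-ratios scaling (open), with the number of members tested in brackets and a dashed line at the median of all genes (0.33). Chemokines lie at the top with 2.57 and late proximal tubule markers at the bottom with -1.46, and scaling moves every list to the left.

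More markers of the straight end of the proximal tubule fell than of its beginning. Of 14 markers of the straight S3 segment, 11 fell, none rose and the median was -1.46. Of 12 markers of the early S1 segment, 1 fell, none rose and the median was -0.32. After scaling the counts were 11 and 6, and without toxin library 3 they were 11 and 5. The difference between the 2 lists was not tested. Slc7a13 stood at 38, 14.5 and 14.8 RPKM with the toxin, against 397, 534 and 553 RPKM with DMSO (log2 fold change -4.53 ± 0.49, adjusted p = 6.04e-06). Acsm3, a medium-chain acyl-CoA synthetase, stood at 99.97, 38.5 and 22.2 RPKM, against 291, 307 and 498 RPKM in DMSO libraries, and Slc5a8, a monocarboxylate carrier, at 17.2, 6.31 and 7.56 RPKM, against 48.7, 50.3 and 61.4 RPKM. In all 3 of these genes toxin libraries 2 and 3 lay below library 1, and no toxin library overlapped vehicle. Atp11a, a phospholipid flippase, fell by 1.82.

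Several S1 transporters overlapped vehicle. Slc5a2 (SGLT2), which takes back most filtered glucose, read 132, 149 and 209 RPKM in the toxin libraries, against 174, 134 and 145 RPKM in the DMSO libraries (log2 fold change 0.09 ± 0.29, adjusted p = 0.794). Slc2a2 (GLUT2), the glucose exit, read 73.7, 81.7 and 109 RPKM, against 104, 73.4 and 99.3 RPKM. The groups overlap for both. Slc6a19, the neutral amino acid carrier, read 67.2, 66.8 and 195 RPKM, against 201, 154 and 173 RPKM in DMSO libraries, so libraries 1 and 2 lay below vehicle and library 3 within it. It was not called in the fit as deposited (-0.86 ± 0.40), but it was called lower without toxin library 3 (-1.37), after scaling (-1.27) and with the replicate number as a block (-0.86, adjusted p = 0.0461). Slc13a3, a dicarboxylate carrier of the basal side, was the S1 list's called fall (-1.91 ± 0.53, adjusted p = 0.00631). Summed over the list, S1 markers stood at 1040.0, 1284 and 2172 RPKM in toxin libraries, against 2263, 1737 and 2065 RPKM in DMSO libraries. S3 markers summed to 6645, 1896 and 3051 RPKM, against 46234, 42773 and 53797 RPKM, most of it Kap. In these sums library 3 was at vehicle level for S1 and far below it for S3, where the sum mainly follows Kap. With each tested marker weighted alike, the mean log2 difference of library 3 from DMSO was 0.11 for S1 and -1.93 for S3. Kap and Slc7a13 differ between the sexes in mouse kidney, and the labels give no sex.

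**Figure D3:**
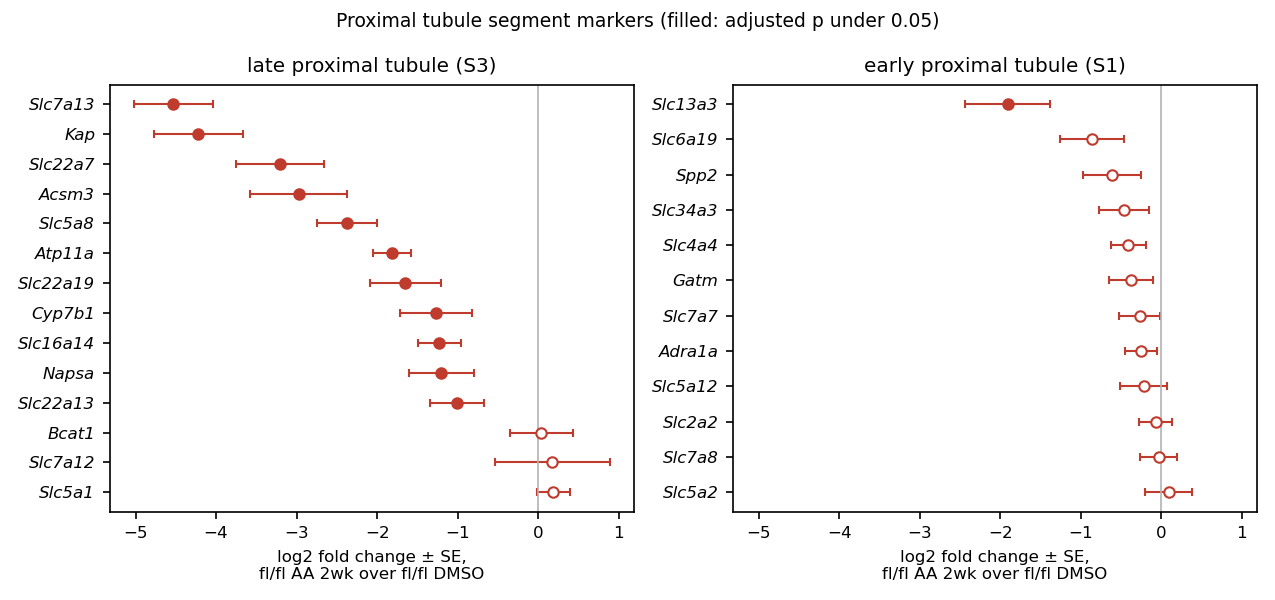
Log2 fold change with SE (AA 2wk over DMSO in fl/fl) of markers of the late (S3, left) and early (S1, right) proximal tubule, filled where the adjusted p is under 0.05. The S3 markers run from -4.53 to 0.19 with 11 of 14 filled, and the S1 markers from -1.91 to 0.09 with 1 of 12 filled.

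Of 33 genes of solute reabsorption, 19 fell and 5 rose (21 and 2 after scaling, 20 and 3 without toxin library 3), with a median of -0.54. Slc34a1, the main phosphate carrier, stood at 846, 834 and 1511 RPKM with the toxin, against 2824, 2249 and 2590.1 RPKM with DMSO. Car4, a membrane carbonic anhydrase for bicarbonate recovery, fell by 2.26 (SE 0.34, adjusted p = 8.25e-05). Aqp1, the water channel, fell by 1.20, a call lost in 1 of the other settings (adjusted p = 0.0503). The sodium-proton exchanger Slc9a3 was not called (-0.15 ± 0.25), and Slc20a1, a second phosphate carrier found in most cells, rose by 1.06 ± 0.21.

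Protein uptake and the brush border followed. Lrp2 (megalin) stood at 45.2, 28.4 and 52.8 RPKM with the toxin, against 173, 194 and 115 RPKM with DMSO (log2 fold change -1.92 ± 0.31, adjusted p = 0.000122). Its partner Cubn (cubilin) fell by 1.21, and Folr1, a folate receptor, fell by 1.34. Of 18 endocytosis genes 9 fell and 4 rose, and after scaling 10 fell and none rose. Of 21 brush border genes 12 fell and 1 rose, with a median of -0.76 (16 and none after scaling, 13 and none without toxin library 3). Ace, the angiotensin-converting enzyme, stood at 14.9, 6.68 and 9.22 RPKM, against 65.7, 60.3 and 77.7 RPKM in DMSO libraries. The meprin subunit Mep1b fell by 2.24 and Ggt1, which splits glutathione, fell by 2.07, while Mme (neprilysin) was not called (0.12 ± 0.16).

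Receptors of mineral hormones fell, and the vitamin D enzymes were not called. Kl (klotho), the FGF23 co-receptor, stood at 105, 109 and 161 RPKM with the toxin, against 266, 214 and 261 RPKM with DMSO. Pth1r, the parathyroid hormone receptor, stood at 116, 114 and 149.8 RPKM, against 297, 265 and 294 RPKM in DMSO libraries. Kl fell by 1.0 (SE 0.17, adjusted p = 0.000151), Pth1r fell by 1.18 (SE 0.18, adjusted p = 0.000103), and Vdr, the vitamin D receptor, fell by 0.98. Cyp27b1, which makes active vitamin D, read 10.3, 8.47 and 8.32 RPKM with the toxin and 8.26, 7.21 and 9.99 RPKM with DMSO. Cyp24a1, which destroys it, read 28, 30.7 and 96 RPKM, against 61.2, 42.4 and 33.5 RPKM, with library 3 the highest of the 6. Neither was called. Edn1 (endothelin 1), a constrictor peptide, rose by 2.29 ± 0.36. Of 18 hormone and receptor genes 8 fell and 5 rose.

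Enzymes of the de novo route to NAD, the redox cofactor, fell, and an NAD-splitting and a nicotinamide-methylating enzyme rose. Haao, of the kynurenine pathway, stood at 42.5, 28.3 and 67.6 RPKM with the toxin, against 183, 191 and 179.6 RPKM with DMSO. Kmo, an earlier step, stood at 19.4, 19.6 and 41.4 RPKM, against 83.7, 76.1 and 91.3 RPKM in DMSO libraries. Toxin library 3 lay between its fellows and vehicle for both. Qprt, which closes the pathway, fell by 1.0 (SE 0.15, adjusted p = 7.82e-05) and Ido2, at its entry, fell by 2.12. Nampt, which recycles nicotinamide, was not called (0.14 ± 0.15). Bst1 (CD157), an NAD-splitting surface enzyme, stood at 38.7, 37 and 28 RPKM, against 1.02, 3.27 and 0.622 RPKM in DMSO libraries (log2 fold change 3.87 ± 0.38, adjusted p = 2.49e-06). Nnmt, which methylates nicotinamide, rose by 2.49 ± 0.48. Of 20 genes of this group 11 fell and 4 rose, with a median of -0.50.

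Amino acid breakdown fell almost throughout. Of 23 genes tested 19 fell, none rose and the median was -1.40. Acy3, which deacetylates mercapturic acids, stood at 315, 149.9 and 269 RPKM with the toxin, against 2078, 1837 and 2379.6 RPKM with DMSO. Bhmt2 and Dmgdh, of methyl group metabolism, fell (-2.14 and -1.92). Related routes changed unevenly: of 21 genes of arginine, creatine, carnitine, inositol and ammonia handling 12 fell and 6 rose (12 and 3 after scaling). Miox, which breaks down inositol in the tubule, stood at 392, 365 and 1093 RPKM, against 2562, 2372 and 2145 RPKM in DMSO libraries, while Isyna1, which makes inositol, rose by 1.38 ± 0.22. Arg2, the mitochondrial arginase, rose by 2.59 ± 0.34. Gatm, the first enzyme of creatine synthesis, was not called (-0.38 ± 0.28) but was without toxin library 3 (-0.67). Pck1, of glucose and ammonia production, fell by 1.77, a call lost without toxin library 1 (-1.58) and without toxin library 2 (-1.37).

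Detoxifying enzymes fell in 20 of 30 cases, with a median of -1.44, and rose in 4. Cyp2e1 stood at 105, 127 and 161 RPKM with the toxin, against 1332, 982 and 1495 RPKM with DMSO, and Ces1f, a carboxylesterase, fell by 2.69. Ephx1, the microsomal epoxide hydrolase, went the other way, at 264, 216 and 345 RPKM, against 25.6, 38.6 and 18.6 RPKM in DMSO libraries (log2 fold change 3.30 ± 0.21, adjusted p = 8.97e-08). Antioxidant genes were evenly divided, 9 higher and 9 lower of 24, with a median of 0.16 that scaling turned to -0.23. Mt2, a metal-binding metallothionein, rose by 2.41 ± 0.24 and Hmox1, heme oxygenase 1, by 1.03 ± 0.13, while Cat (catalase) fell by 1.26 and Sod1 fell by 0.87. In iron handling, 7 of 16 rose and 3 fell, and after scaling 5 rose and 7 fell with a median of -0.21. Cp (ceruloplasmin, a ferroxidase) rose by 2.68 ± 0.46, Slc40a1 (the iron exporter ferroportin) by 0.84 ± 0.09, and Tfrc, the transferrin receptor, fell by 0.92.

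Lipid genes changed in both directions. Cd36, a fatty acid receptor, stood at 36.8, 17 and 29.2 RPKM with the toxin, against 144, 122 and 183 RPKM with DMSO. Lpl, the lipase that frees fatty acids, fell by 2.30 (SE 0.15, adjusted p = 8.97e-08) and the carrier Slc27a2 fell by 1.87. Plin2, the coat of lipid droplets, stood at 161, 152 and 145 RPKM, against 57.4, 50.9 and 55.6 RPKM in DMSO libraries, alike in all 3 toxin libraries. Apoe and Abca1, of lipid export, rose by 2.00 ± 0.28 and 1.78 ± 0.24. Hmgcs1, of cholesterol synthesis, fell by 1.11, and the fatty acid synthase Fasn (0.32 ± 0.20) was not called. Of 34 genes 12 rose and 7 fell, with a median of 0.26, and after scaling 7 rose and 13 fell, with a median of -0.12.

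Glycolytic genes rose in part. Of 23 genes of hypoxia and glycolysis, 15 rose and 3 fell (10 and 6 after scaling), with a median of 0.66. Hk2 and Pkm, an inducible hexokinase and pyruvate kinase, rose by 1.67 ± 0.34 and 1.42 ± 0.12. Ldha, which makes lactate, read 220.4, 218 and 205 RPKM with the toxin and 247, 206 and 248 RPKM with DMSO and was not called, although after scaling it was called lower (-0.52). Car9, a classic hypoxia target, fell by 1.5 (SE 0.21, adjusted p = 3.81e-05).

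The integrated stress response and ribosome production rose. Of 22 stress genes 16 rose and none fell (10 and 1 after scaling), with a median of 0.81. Asns, which makes asparagine, stood at 8.19, 10.8 and 7.33 RPKM with the toxin, against 2.30, 1.46 and 1.67 RPKM with DMSO. Phgdh, which starts serine synthesis, stood at 6.32, 8.76 and 6.91 RPKM, against 1.98, 1.04 and 1.28 RPKM in DMSO libraries. Every toxin library lay above every DMSO library for both. Mthfd2, whose promoter is printed above, stood at 8.11, 11.6 and 4.03 RPKM, against 1.18, 1.05 and 1.13 RPKM in DMSO libraries (log2 fold change 1.97 ± 0.33, adjusted p = 0.000153), and Slc7a5, an amino acid carrier, rose by 2.08 ± 0.18. Hspa5, the chaperone BiP of the endoplasmic reticulum, scattered at 293, 454 and 151 RPKM with the toxin and 228, 169 and 307 RPKM with DMSO and was not called, except without toxin library 3 (0.68). Of 20 ribosome biogenesis genes 14 rose (8 after scaling, when 1 fell), led by the nucleolar protein Nop58 (1.35 ± 0.23). Of 26 autophagy and lysosome genes 16 rose and 4 fell, with a median of 0.37, and after scaling 11 rose and 8 fell, with a median of -0.03. Gabarapl1, an autophagosome protein, fell by 0.86, and Ctsd, a general lysosomal protease, rose by 1.34 ± 0.15.

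Clotting and its control rose in 19 of 20 genes, with a median of 2.08 and no fall. Serpine2, a thrombin inhibitor, stood at 175, 172 and 169.5 RPKM with the toxin, against 7.39, 12.2 and 3.78 RPKM in DMSO libraries, with toxin libraries within a few RPKM of each other. Plat, the tissue activator of plasminogen, rose by 2.76 ± 0.18 and the urokinase receptor Plaur by 3.63 ± 0.31. The 3 fibrinogen chains rose together: Fga by 2.38 ± 0.46, Fgb by 2.10 ± 0.33 and Fgg by 3.20 ± 0.46. F3, the tissue factor that starts clotting, rose by 2.17 ± 0.29. Of 25 acute phase and complement genes 20 rose and 1 fell, with a median of 2.08. C3 read 134, 176 and 36.3 RPKM in the toxin libraries, against 1.68, 3.29 and 1.41 RPKM in the DMSO libraries. Cfb, which works beside C3 in the alternative pathway, fell by 0.50 (adjusted p = 0.0236), a call lost in 5 settings, among them without toxin library 1 (-0.41), DMSO library 1 (-0.45) or DMSO library 3 (-0.40).

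Chemokine genes rose in 27 of 33 cases, with a median of 2.57, the highest among the lists, and none fell. Ccl2, which calls in monocytes, stood at 26.2, 62.7 and 13.6 RPKM with the toxin, against 0.963, 0.784 and 0.0784 RPKM with DMSO. Cxcl1, a neutrophil attractant that tubule cells make, stood at 22.8, 28 and 22.3 RPKM, against 0.409, 1.39 and 0.399 RPKM in DMSO libraries. The 3 toxin libraries were alike for Cxcl1, whereas Ccl2 was 4 or more times lower in library 3 than in library 2. Cxcl12 was not called (-0.33 ± 0.53). Csf1, the growth factor of macrophages, stood at 73.6, 95.5 and 83.6 RPKM, against 2.52, 3.65 and 1.66 RPKM in DMSO libraries (log2 fold change 4.59 ± 0.40, adjusted p = 9.02e-07), and Il34, the other ligand of its receptor, rose by 0.87. Of 26 genes of tumour necrosis factor, interleukin 1 and colony-stimulating factor signalling 24 rose, among them Tnfrsf12a, the TWEAK receptor (3.48 ± 0.21), and Socs3, a brake on cytokine signals (3.86 ± 0.29). Il6 was not called (0.75 ± 0.32), but it was without toxin library 3 (1.02), with a pseudocount of 0.1 RPKM (2.73) and on recovered reads (4.49).

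Interferon and antigen presentation genes rose broadly. Of 30 interferon and nucleic acid sensing genes 28 rose, with a median of 1.65, and all 22 genes of antigen presentation were called higher, with a median of 2.20. Gbp2, an interferon-induced GTPase, stood at 118, 205 and 30.1 RPKM with the toxin, against 8.35, 6.20 and 9.44 RPKM with DMSO. Tmem173 (STING), the adaptor of DNA sensing, rose by 3.23 ± 0.38 and Ifit3 by 2.86 ± 0.30. Rsad2 (viperin) was not called (0.29 ± 0.29). Cd74, the class II invariant chain, read 1674, 2652 and 309 RPKM in the toxin libraries, against 165, 196 and 149 RPKM in the DMSO libraries. H2-Ab1, a class II chain, read 690.1, 1120.3 and 133 RPKM, against 70.6, 90.9 and 66 RPKM. Library 3 lay far nearer to vehicle than its fellows did. B2m, the light chain of class I, rose by 2.21 ± 0.34.

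Markers of immune cells moved with these lists. Macrophage and dendritic markers summed to 869, 2120.4 and 273 RPKM in toxin libraries, against 55.7, 73.1 and 48.9 RPKM in DMSO libraries. Lymphocyte markers summed to 199, 229 and 55.7 RPKM, against 30.9, 29.6 and 30.4 RPKM. The part of these cells in the immune, lysosomal and lytic death lists was not tested. Of 23 macrophage markers 18 rose, and of 20 lymphocyte markers 18 rose. Cd68, a lysosomal protein of macrophages, stood at 95.5, 95.5 and 27.6 RPKM with the toxin, against 4.13, 4.42 and 2.18 RPKM with DMSO, and Lyz2 at 458, 1349.6 and 105 RPKM, against 7.45, 14.4 and 4.42 RPKM. Mertk, a receptor for dying cells that tubule cells also use, fell by 0.52, and Cd163 was not called (0.36 ± 0.19), except with a pseudocount of 0.1 RPKM (1.42) and on recovered reads (2.24). Cd3g, of T cells, and Nkg7, of cytotoxic cells, rose by 3.03 ± 0.60 and 2.79 ± 0.66, whereas Cd79a, of B cells, was not called (0.41 ± 0.24). Few neutrophil and mast cell markers were high enough to test. Of the 5 tested, 3 rose and none fell, with a median of 0.7, and S100a8 was not called (0.44 ± 0.56). Elane, Mcpt4 and Fcer1a are listed at 0 in all 6 libraries. A pair of proteases was high in toxin library 1. Mmp9, a gelatinase, read 131, 19.4 and 1.95 RPKM in toxin libraries, against 0.367, 0.235 and 0.119 RPKM in DMSO libraries. Ctsk, a collagen-splitting cathepsin, read 169, 27.1 and 7.35 RPKM, against 1.89, 4.28 and 0.798 RPKM. The call for Mmp9 (adjusted p = 0.00134) was lost when recovered reads were tested (log2 fold change 6.31, adjusted p = 0.0795).

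Fibrillar matrix genes rose in 26 of 31 cases, with a median of 1.72 and no fall. Col1a1, a main collagen of scar, stood at 68.9, 49.1 and 11.7 RPKM with the toxin, against 4.42, 6.56 and 1.33 RPKM with DMSO. Col3a1, a second such collagen, stood at 122, 97.3 and 24.3 RPKM, against 5.92, 9.15 and 2.35 RPKM in DMSO libraries. Both lay above vehicle in all 3 toxin libraries, and in library 3 by the least. Col1a1 rose by 2.95 ± 0.86 (adjusted p = 0.00813), Col3a1 by 3.45 ± 0.89 (adjusted p = 0.0038) and Fn1 (fibronectin) by 2.71 ± 0.53. Basement membrane genes divided, 14 higher and 4 lower of 22. Col4a1, a main collagen of basement membranes, rose by 1.63 ± 0.30, while the laminin chains Lama1 and Lama3 fell (-0.57 and -0.59). Of 22 proteases and inhibitors 17 rose and 1 fell (14 and 2 after scaling). Mmp2 and Mmp14, a gelatinase and its membrane activator, rose by 3.88 ± 0.60 and 3.16 ± 0.40, and Adam8 by 4.05 ± 0.42. Timp1 stood at 52.9, 82.9 and 11.6 RPKM with the toxin, against 0.374, 0.516 and 0.142 RPKM with DMSO, whereas Timp3, bound to matrix, fell by 0.91.

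Stromal markers had a lower median than matrix genes. Of 18 fibroblast and pericyte markers 10 rose (5 after scaling), none fell and the median was 1.0. Acta2, of smooth muscle and myofibroblasts, read 82.3, 85.2 and 24.4 RPKM with the toxin, against 16.1, 33.5 and 6.41 RPKM with DMSO, groups that overlap, and its call (adjusted p = 0.0157) was lost in 4 settings, among them without toxin library 1 (1.52), toxin library 2 (1.49) or DMSO library 3 (1.22). Pdgfrb, of pericytes, rose by 1.0 ± 0.37, a call lost in 6 settings, among them without toxin library 1 (0.74), toxin library 2 (0.98) or DMSO library 3 (0.54). S100a4, of fibroblasts and also of leukocytes, stood at 139.7, 100.4 and 39.4 RPKM, against 2.33, 6.67 and 2.78 RPKM in DMSO libraries. Fibroblast markers summed to 664, 524 and 235 RPKM in toxin libraries, against 132, 224 and 74.7 RPKM in DMSO libraries. Of 24 endothelial genes 10 rose and 1 fell, with a median of 0.40 (3 and 2 after scaling). Icam1, an adhesion molecule that injured tubule also makes, led with 2.81 ± 0.23. Kdr, the VEGF receptor of capillaries, fell by 0.63 (adjusted p = 0.0375), a call lost in 5 settings, among them without any of toxin libraries 1 and 2 and DMSO libraries 1 and 2 (-0.68 to -0.52).

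Markers of other nephron segments changed in both directions. In the thick ascending limb 5 of 16 markers rose and 2 fell (2 and 2 after scaling, 3 and 2 without toxin library 3). Umod read 4186, 1159 and 4756 RPKM in the toxin libraries, against 1443, 2188 and 1088 RPKM in the DMSO libraries. It was not called in the fit as deposited. Slc12a1, the salt carrier of this limb, read 422, 90.8 and 428 RPKM, against 167, 295 and 111 RPKM. In both genes toxin library 2 was far below its fellows, and without it both were called higher (1.56 for Umod, 1.26 for Slc12a1). Umod was also called without DMSO library 2 (1.18) and, with all 6 libraries, after quantile normalization (1.47). Markers of the limb summed to 5518, 1687 and 6356 RPKM with the toxin, against 2519, 3577 and 2006 RPKM with DMSO. In the distal convoluted and connecting tubule 4 of 17 markers rose and 2 fell (2 and 9 after scaling, 4 and 5 without toxin library 3). Pvalb (parvalbumin) stood at 2.52, 2.06 and 15 RPKM, against 25.5, 22.1 and 29 RPKM in DMSO libraries, with a log2 fold change of -2.25, while the thiazide-sensitive carrier Slc12a3 was not called (0.11 ± 0.31). In principal cells 6 of 17 rose and 1 fell (2 and 1 after scaling), with Aqp2, the vasopressin-regulated water channel, not called (0.66 ± 0.33) except when only the 6 fl/fl libraries were fitted (0.66, adjusted p = 0.0441). In intercalated cells 4 of 17 rose and 1 fell, with a median of 0.04, but 1 rose and 6 fell after scaling, and 3 rose and 5 fell without toxin library 3. Of 18 podocyte and parietal genes 10 rose and 1 fell (6 and 1 after scaling). Nphs1 (nephrin) was not called (0.24 ± 0.33), and Cd2ap, an adaptor at its slit diaphragm and in other cells, rose by 1.25 ± 0.15. Of 4 markers of other tissues tested, 1 rose and 1 fell, with a median of 0.12 (none and 2 after scaling, with a median of -0.04). The hemoglobin genes Hbb-b2 and Hba-a2 are listed at 0 in all 6 libraries, as are Hbb-b1 and Hba-a1.

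Toxin library 3 was not equally near to vehicle in all gene groups. For each list, the mean difference of its called members from the DMSO mean in library 3 was set against that in libraries 1 and 2 together, on the log2 scale. The value was 121.7% for the S3 falls, and on the mean over all tested S3 markers library 3 (-1.93) lay between library 1 (-1.15) and library 2 (-2.28). It was 81.7% for inhibitors and senescence genes, 80.5% for translesion synthesis, 75.2% for clotting and 74.0% for repair tubule markers. It was 48.9% for fibrillar matrix, 48.8% for rises in lytic death and ferroptosis, 43.6% for break and crosslink repair and 42.7% for chemokines. It was 35.6% for antigen presentation and 32.6% for lymphocyte markers. Among other rises it was 188.4% for intercalated cells (4 called members), 158.1% for detoxifying enzymes (4) and 142.5% for the thick ascending limb (5). Over all tested markers of the limb the means were 0.7, -0.5 and 0.84 in toxin libraries 1, 2 and 3, so library 2 lay apart there. After scaling, 1 intercalated cell marker was called higher. It was 128.4% for rises of tubule identity factors (6 called members) and 112.2% for those of antioxidant genes (9). Among falls it was 110.8% for apoptosis (3 called members), 54.8% for amino acid breakdown and 46.0% for tubule identity factors. Not every list is given here. Over all genes called it was 65.1% for rises and 65.5% for falls. These values describe 1 library, carry no test and use calls to which that library contributed. Besides the replicate number, the labels set it apart from its fellows in nothing. The PTKO AA 2wk library of the same number also stood apart, at -7.1 on the first principal component, where its fellows lay at 46.3 and 41.6. Library 3 of fl/fl held the fewest reads of the 6 libraries, and the part of depth in these values was not tested.

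**Figure D4:**
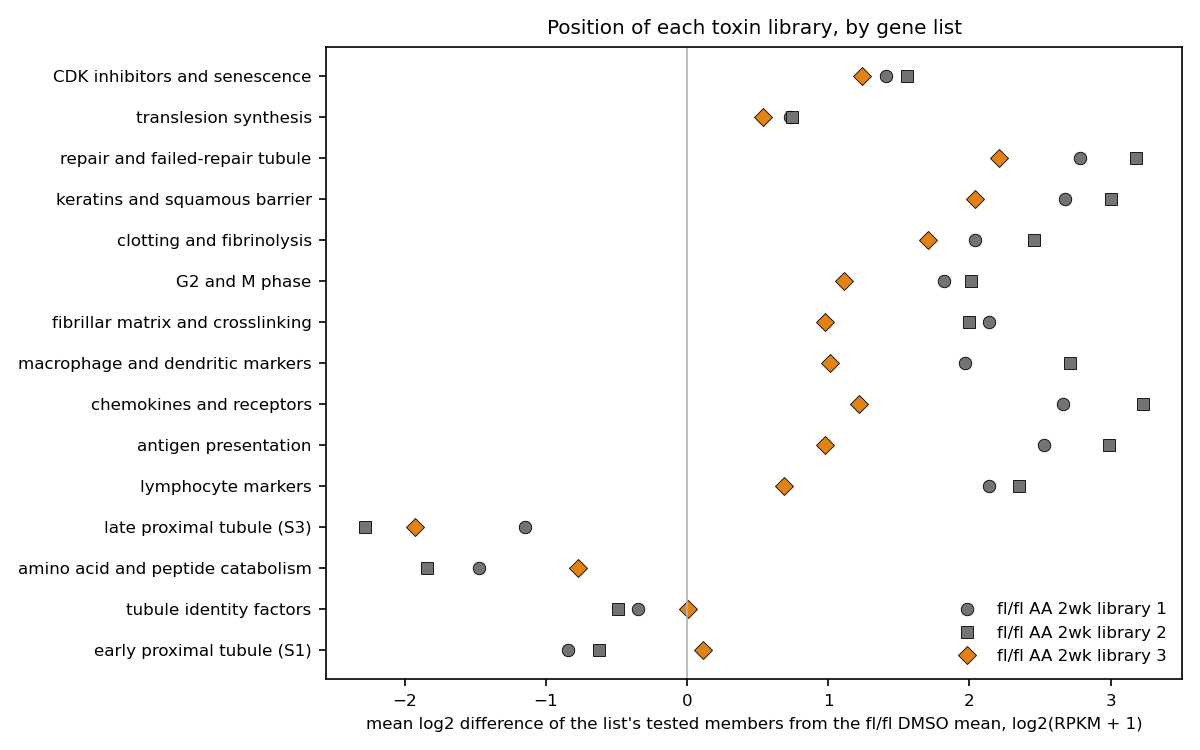
Mean log2 difference from the fl/fl DMSO mean, over each list's tested members, in fl/fl AA 2wk libraries 1, 2 (grey) and 3 (orange). Library 3 lies near its fellows for inhibitors and translesion synthesis, between them for S3 markers, below them but above vehicle for lymphocyte (0.69) and antigen presentation (0.98) lists, and near vehicle for identity factors (0.01) and S1 markers (0.11).

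The response with Klf15 intact was also set against that of PTKO cortex at the same time. A test of the difference between the 2 responses (PTKO minus fl/fl) called 2 of 13624 genes, or 0.0147%. Of the same 13624 genes, 730 had an unadjusted p under 0.05. On average a share of 0.05 of all genes passes that bound when no gene differs. The called genes were Hprt and Tmem86a. Without toxin library 2 the test called 8 genes, and without toxin library 1, DMSO library 1 or DMSO library 3 it called 1. Hprt, a purine salvage enzyme often used as a reference gene, averaged 95.4 ± 9.64 RPKM with the toxin and 54.5 ± 6.67 RPKM with DMSO in fl/fl (log2 fold change 0.80 ± 0.14, adjusted p = 0.000229). After scaling it was 0.40 and not called (adjusted p = 0.052). In fl/fl, Tmem86a, an enzyme of lysoplasmalogen breakdown, averaged 18.4 ± 2.98 and 17 ± 2.25 RPKM and was not called. A difference in response that misses the threshold is not shown to be absent by this test.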

How the data were processed

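Total RNA of mouse kidney cortex was sequenced after TruSeq Stranded Total RNA preparation, per the labels' protocols. The authors deposited 1 table of RPKM per gene for 18 libraries. Tools given in the submitters' processing notes are kallisto and bcl2fastq 2.19, with the mm10 build. How RPKM was counted, with which annotation and strand setting, is not stated in any label or header, so genes that overlap, run antisense or have near-identical copies may share reads.

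Genes at 1 RPKM or more in at least 3 of the 18 libraries (13624 of 24062) were fitted on log2(RPKM + 1) with limma 3.58.1 (R 4.3.3, statmod 1.5.0; intensity trend, robust moderation), with 6 group means, and p-values were adjusted by Benjamini-Hochberg over all genes tested. An SE is that of the fit, and an SD is over 3 libraries. An exact test of 3 against 3 libraries cannot go below 0.1, so no single-gene permutation test was used.

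The values are whole multiples of what 1 read is worth. Within 0.02 reads, 17578 of 17579 genes (99.994%) above 0 in at least 6 libraries gave whole reads, at 10.7 M to 21.2 M reads a library. These reads gave depths and 1 alternative test (voom), which called 8693 genes. Depth limits low genes, and no interval for counting error is given. No 2 libraries were identical.

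Genes were described in 55 lists. The genes named are the 12 largest rises and 12 largest falls among called genes whose groups do not overlap and whose higher mean is at least 10 RPKM, the largest called rise and fall in a list, and members named for their role. Some genes that this rule would name are not reported here. Members and lists were chosen with earlier results of these data known. The limma script was tested on simulated data. The alternatives were a pseudocount of 0.1 RPKM, no filter, median-of-ratios and quantile scaling, other sets of libraries, a replicate block, no trend or robust moderation, voom, and each library left out. RefSeq promoters came from GRCm38.p6.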

Additional observations from a re-analysis of the deposited data

Results flagged for a closer look

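For Hprt and Tmem86a the difference between the responses of the 2 genotypes passed the test of that difference (limma, adjusted over 13624 genes). Hprt stood at 7.02, 8.15 and 7.29 RPKM in PTKO AA 2wk libraries, against 20.9, 15.9 and 15.1 RPKM in PTKO DMSO libraries. In fl/fl it stood at 88.1, 106 and 91.8 RPKM with the toxin, against 53.5, 48.4 and 61.6 RPKM with DMSO. The PTKO response minus the fl/fl response was -1.9 on the log2 scale (SE 0.20, adjusted p = 0.00108). In fl/fl alone the rise of Hprt was 0.80 as deposited and 0.40, not called, after median-of-ratios scaling. Every PTKO library, toxin or DMSO, lay below every fl/fl library.

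Tmem86a stood at 12.8, 14 and 9.85 RPKM in PTKO AA 2wk libraries, against 31.1, 29 and 35.2 RPKM in PTKO DMSO libraries. In fl/fl it stood at 17.4, 16 and 21.7 RPKM with the toxin, against 16.9, 19.3 and 14.8 RPKM with DMSO, groups that overlap. The PTKO response minus the fl/fl response was -1.42 (SE 0.20, adjusted p = 0.0181).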

How the results depend on the processing

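The number of genes called lay between 6595 and 9315 in all alternatives, and between 7251 and 8704 when 1 library at a time was left out. The number called higher lay between 5936 and 7167 with 1 library left out, but fell to 3800 after median-of-ratios scaling and 3285 after quantile normalization, where 3776 and 4051 were called lower. By construction both scalings centre the libraries on each other. The interaction called 1 gene with the replicate block and 1 to 8 genes with 1 library left out.

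Of the 242 genes named, 13 lost a call in at least 1 setting. After median-of-ratios scaling Xpc (-0.25) and Tmem86a (-0.28), and after quantile normalization Atm (-0.40) and Atr (-0.42), were called lower, with uncalled values above 0 as deposited. List medians turned sign after median-of-ratios scaling in 8 lists, and that of endothelial genes after quantile normalization (-0.03). The cause was not tested.

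Same-numbered fl/fl AA 2wk and DMSO libraries deviated from their group means with correlations of -0.049, -0.044 and 0.186. Libraries of unlike number gave values from -0.413 to 0.418. Such values cannot settle whether the numbers mark pairs. Library 3 of AA 2wk lay apart in both genotypes (-7.1 in PTKO and -7.3 in fl/fl on the first principal component), and what the number marks is not stated. With the replicate block 8816 genes were called, and of the genes named Slc6a19 gained a call and none lost one. A block in only the 6 fl/fl libraries, added after seeing the data, called 6595. Depth limits genes under about 1 RPKM.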

Other observations

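The size of the response can be given without regard to lists. Among called genes, 2129 were higher and 486 lower by more than 1 on the log2 scale, 574 higher and 95 lower by more than 2, and 28 higher and 7 lower by more than 4. Among the called genes whose difference in toxin libraries 1 and 2 passed 1 on the log2 scale, library 3 showed a median of 57.0% of that difference in 2518 higher genes (quartiles 41.6% and 74.1%) and 62.6% in 601 lower genes (quartiles 46.3% and 82.0%). Correlations between replicates on the log2 scale, over genes that are not independent, were 0.98, 0.965 and 0.944 with the toxin and 0.979, 0.989 and 0.992 with DMSO. The summed level of podocyte and parietal markers was 362, 435 and 348 RPKM in toxin libraries, against 206, 234 and 187 RPKM in DMSO libraries. That of principal cell markers was 772, 761 and 754 RPKM, against 599, 619 and 505 RPKM. These sums are not scaled. The median-of-ratios factors were 1.05 to 1.13 in toxin libraries and 0.77 to 0.92 in DMSO libraries, so scaling narrows both gaps. After scaling, 2 of 17 principal cell markers were called higher and 1 lower, with a median of 0.15. Of 18 podocyte and parietal genes 6 were higher and 1 lower, with a median of 0.16.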
